A study of Rattus norvegicus with 6 samples.

Results

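The integrin and laminin subunits were described in the lungs of rats with bleomycin-induced pulmonary fibrosis (PF) and of control rats. The members were all gene names of the deposited transcript table that follow the naming of alpha integrins, beta integrins and laminin chains. They were taken by name and not by a measured value, though earlier results of these data were known. This gave 35 of 21210 gene names with an annotated transcript, namely 17 alpha integrin subunits, 8 beta integrin subunits and 10 laminin chains. They hold 151 of 70376 assembled transcripts and 35 of 5216 circRNAs. Sprague–Dawley rats, 7 weeks old, received either saline (control) or bleomycin at 7 mg/kg as a single dose into the trachea (PF model), and lungs were taken on day 28. The data hold 3 rats of each group, and each rat gave 1 library of total lung RNA freed of rRNA. Bleomycin is a DNA-damaging drug whose delivery to the airways is a common way to bring about lung fibrosis in rodents, and the injury it causes is often patchy. No row carried the names Itgam, Lama3 or Lamb4, and these genes are not analysed here by name.

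Integrins are cell surface receptors made of an alpha and a beta subunit, and the pair decides which matrix protein or cell surface ligand is bound. Laminins are cross-shaped trimers of an alpha, a beta and a gamma chain that form the scaffold of basement membranes, on which the alveolar epithelium and the capillary endothelium rest. In the lung, integrins with the alpha v subunit are known for releasing active TGF-beta from its latent complex, and integrins with the beta 2 subunit for carrying leukocytes into tissue.

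The 250 bases upstream of the annotated start of Itgb1, Itgav and Itgax were taken from RefSeq (build GRCr8), and each is printed in the direction of transcription. Itgb1 is the most abundant member, Itgav had the smallest p among the member genes, and Itgax the smallest p among the member transcripts. Capitals mark 3 motifs on either strand, which do not overlap in these sequences. They are GGGCGG (the core of a GC box), GGAAGT (a core bound by ETS factors) and TGANTCA (an AP-1 type site). The first lies at chr19:73602027-73602276, the second at chr3:89245132-89245381 and the third at chr1:192149799-192150048, all on the plus strand.
Itgb1: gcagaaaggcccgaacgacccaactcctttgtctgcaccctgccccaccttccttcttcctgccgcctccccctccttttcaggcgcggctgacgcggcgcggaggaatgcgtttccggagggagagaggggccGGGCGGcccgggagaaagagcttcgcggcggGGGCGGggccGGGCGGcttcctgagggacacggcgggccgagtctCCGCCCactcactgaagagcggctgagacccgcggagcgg
Itgav: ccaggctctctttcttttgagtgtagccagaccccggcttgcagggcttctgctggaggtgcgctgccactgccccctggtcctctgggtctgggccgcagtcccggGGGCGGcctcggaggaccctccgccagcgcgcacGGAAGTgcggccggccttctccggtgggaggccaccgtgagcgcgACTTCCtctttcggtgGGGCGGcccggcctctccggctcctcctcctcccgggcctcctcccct
Itgax: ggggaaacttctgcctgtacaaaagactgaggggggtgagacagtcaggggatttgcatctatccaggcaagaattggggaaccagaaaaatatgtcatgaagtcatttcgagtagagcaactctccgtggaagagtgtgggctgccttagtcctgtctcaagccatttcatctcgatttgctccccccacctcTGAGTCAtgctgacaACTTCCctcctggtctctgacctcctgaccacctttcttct
The Itgb1 promoter held 4 copies of GGGCGG, 28 CpG dinucleotides and 71.2% G and C. The Itgav promoter held 2 copies of GGGCGG, 2 of GGAAGT and 21 CpG dinucleotides. The Itgax promoter held no GGGCGG, 1 GGAAGT and 1 TGANTCA, with 3 CpG dinucleotides and 50.4% G and C. RefSeq entries were matched for 26 of the 35 members. GGGCGG occurred in 13 of these 26 promoters (50%) and in 30.5% of all 33469 promoters, GGAAGT in 5 (19.2%) against 19.2%, and TGANTCA in 1 (3.85%) against 6.34%. The median number of CpG dinucleotides was 10.5 in members and 5 in all promoters. A match of these letters describes the sequence and does not show that a factor binds there.

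The level of a member was its summed FPKM, that is, fragments scaled to transcript length and to the mapped fragments of the library, added over every transcript carrying its name. The libraries summed to between 510208 and 597647 FPKM, of which between 34.1% and 46.4% belonged to genes named after Rfam families of small RNAs. Between 135256 and 165462 reads per library were estimated to come from the members. In lung tissue, fewer cells of a type and less RNA per cell cannot be told apart. Itgb1, the common partner of most matrix-binding alpha subunits, was the most abundant member in all 6 lungs apart from the value of Itga10 in control 1 described further on. Its FPKM was 108, 98.1 and 107.9 in control and 107.4, 95.7 and 109.7 in PF model lungs. Itga8, Itga1 and Itgav led the alpha subunits, and Lamb2, Lamc1 and Lama4 led the laminin chains. In 32 members the FPKM exceeded 1 in every lung. Lama1, the laminin alpha chain of early embryonic basement membranes, was at 0.016 FPKM in control 2, at 0.0043 in PF model 2 and at 0 in the other 4 lungs, and was not tested.

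**Figure D1:**
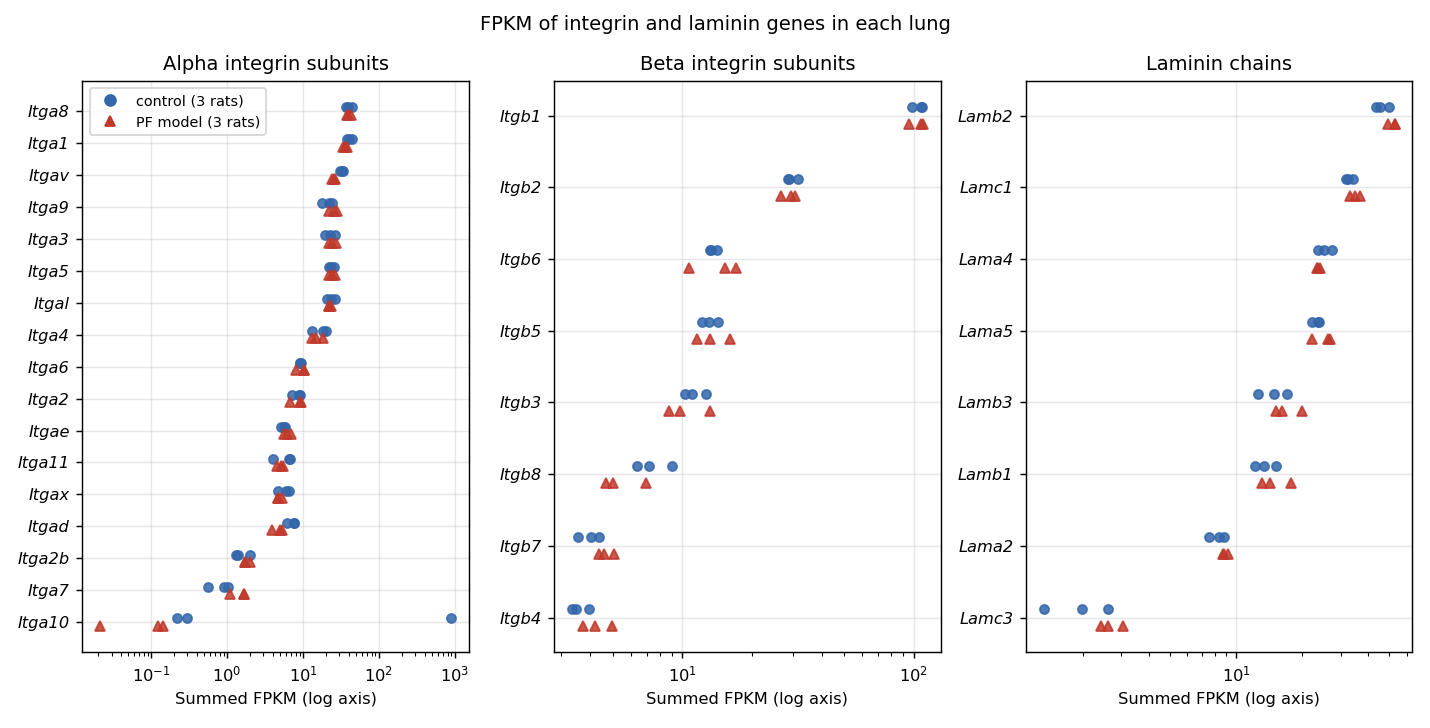
Summed FPKM (horizontal log axis) of the alpha integrin, beta integrin and laminin genes tested, 1 laminin chain left out, with blue circles for the 3 control lungs and red triangles for the 3 PF model lungs. Most members overlap between groups, the Itgav triangles lie left of its circles, and Itga10 spans from 0.0211 in PF model 1 to 892 in control 1.

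In the comparison of PF model with control lungs, no integrin or laminin gene passed the thresholds of the study, an unadjusted p of at most 0.05 with a log2 ratio of group means of at least 1 in size (limma). Over all 19203 genes tested, 293 (1.53%) passed both. Of the 34 members tested, 3 had an unadjusted p of at most 0.05. Itga7 was higher in the PF model, a direction found for 2.16% of all genes at this p, and Itgad and Itgav were lower, as were 2.73% of all genes. After Benjamini-Hochberg adjustment over all genes, no member had an adjusted p below 0.05 (limma, range 0.934 to 1), against 0.0104% of all genes. The 3 PF model lungs lay above the 3 control lungs in 2 members (Itga7 and Itgb7; 4.86% of all genes) and below them in 4 (Itga1, Itga10, Itgad and Itgav; 5.83% of all genes). The log2 fold changes, on the log2(FPKM + 1) scale, were within 0.5 of 0 in 32 of the 34 members. They were above 0 in 20 members and below 0 in 14, with a median of 0.04 against -0.0064 over all genes, of which 47.7% were above 0. For spliced transcripts alone, described further on, 23 were above 0 and 11 below, with a median of 0.06 and 49.5% of all genes above 0. After rescaling to TPM, 24 were above 0 and 10 below, with a median of 0.12, while 61.4% of all genes were above 0 and their median was 0.05.

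Many rows that carry a member's name were neither annotated transcripts nor variants of them. Of the 151 transcripts, 54 were annotated (class code =) and 52 were assembled variants with at least 1 junction of the annotation (class code j). A further 37 lay within an intron (class code i), 5 just downstream (class code p) and 3 overlapped an exon in another way (class code o). These last 45 transcripts made up a median of 10.1% of a member's FPKM, over 20% in 14 members and over 50% in 5 (Itga10, Itga2, Itga9, Itgae and Itgb8). Of the intronic ones, 19 were on the strand opposite to the gene, 7 on the same strand and 11 had no strand. The libraries were made with a stranded kit, but whether strand was used in the assembly is not given in the sources used here. Whether these 45 transcripts belong to the mRNA of the gene was not tested. The fit was repeated on the spliced transcripts alone (class codes = and j), which left 1 member, Itga7, at an unadjusted p of at most 0.05 (background 2.19%). On this scale 3 members lay entirely above control (Itga7, Itgb7 and Lama2; 4.94% of all genes) and 1 entirely below (Itgav; 5.27%).

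**Figure D2:**
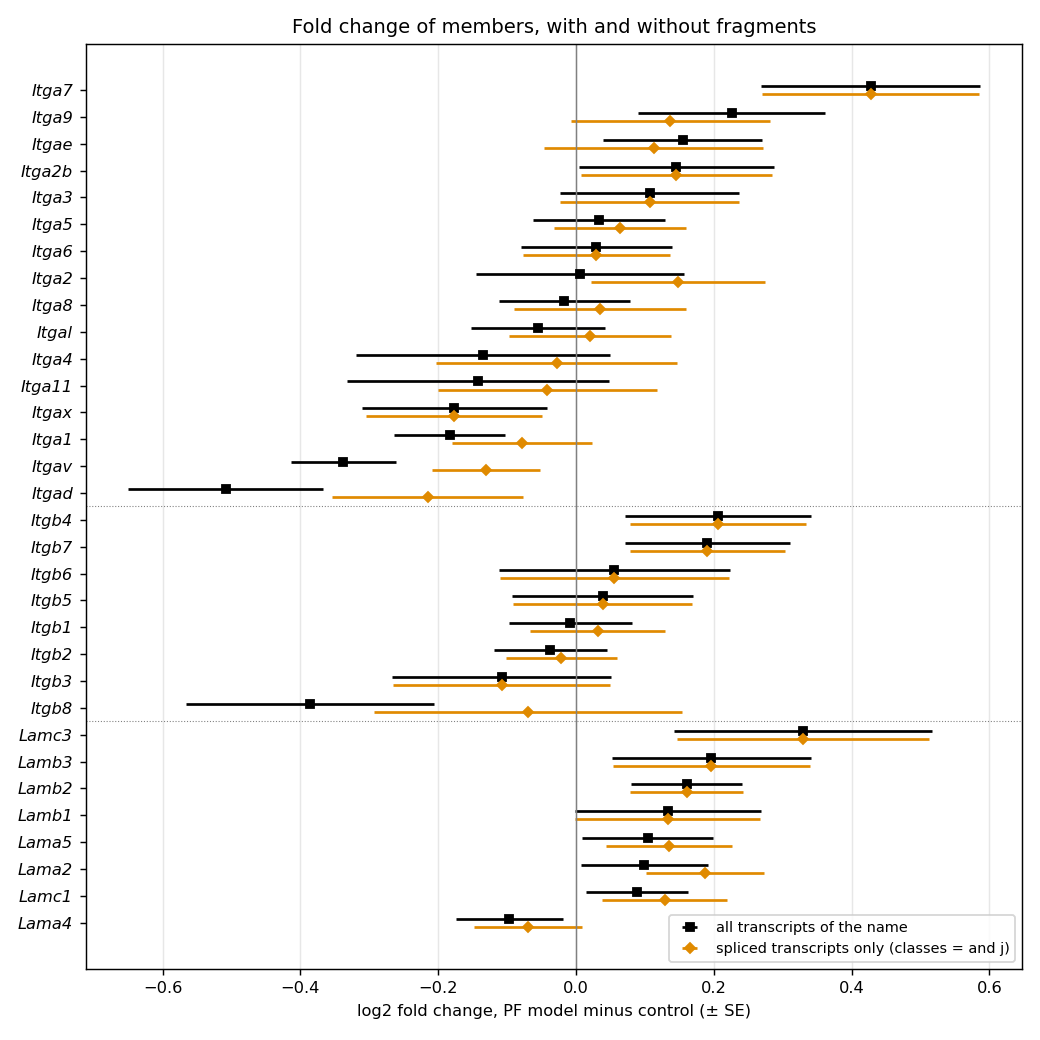
log2 fold change (PF model minus control, horizontal axis, ± SE) of 32 members on the log2(FPKM + 1) scale, from all transcripts (black squares) and from spliced transcripts alone (orange diamonds); Itga10 is left out for its single extreme value, and 1 laminin chain is not shown. Itgav, Itgad and Itgb8 move toward 0 once the fragments are left out, and 7 of the 8 laminin chains shown lie right of 0 in both.

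Among the alpha subunits that bind the RGD motif of fibronectin, vitronectin and latent TGF-beta, Itgav had the lowest p of all members. Itgav (chromosome 3, 71114100 to 71202411 in the coordinates of the files, whose build is not given in the sources used here) measured 32.5, 30.5 and 33.4 FPKM in control and 25.6, 26.4 and 23.7 in PF model lungs. The groups did not overlap, and the log2 fold change was -0.34 ± 0.08 (SE, unadjusted p = 0.00362, limma adjusted p = 0.934). A single-exon transcript of 760 bases inside the gene, MSTRG.23281.1, assigned to the opposite strand, held 12.2, 11.4 and 11.9 FPKM of these values in control and 8.06, 8.51 and 6.67 in PF model lungs. Between 233 and 442 reads per library were estimated to come from it, and its log2 fold change was -0.56 ± 0.11 (SE, unadjusted p = 0.00245, limma adjusted p = 0.637). The spliced transcripts of Itgav measured 16.8, 17.2 and 19.0 FPKM in control and 16.48, 15.4 and 16.2 in PF model lungs. They too did not overlap, by a smaller margin, with a log2 fold change of -0.13 ± 0.08 (SE, unadjusted p = 0.140, limma). From annotated transcripts only, the log2 fold change of Itgav was 0.14 (unadjusted p = 0.285, limma), the opposite direction. Those transcripts held 0.564% of the Itgav FPKM, so this value rests on levels near 0.

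Itga8, a receptor for nephronectin on fibroblasts and smooth muscle cells, measured 44.4, 38.8 and 37.0 FPKM in control and 37.4, 38.6 and 42.6 in PF model lungs. The groups overlapped, and the log2 fold change of -0.02 ± 0.10 (SE) turned to 0.03 for spliced transcripts and to 0.07 after rescaling to TPM. Itga5, the main fibronectin receptor subunit, overlapped too, at 23.7 ± 1.91 FPKM in control and 24.2 ± 2.07 in PF model lungs (SD, n = 3), with a log2 fold change of 0.03, or 0.06 for spliced transcripts. Itga2b, the platelet fibrinogen receptor subunit, measured 1.57 ± 0.37 and 1.82 ± 0.174 (SD, n = 3). Summed over spliced transcripts, the 4 RGD-binding alpha subunits came to between 61.3 and 69.3 FPKM in control and between 62.4 and 70.5 in PF model lungs.

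The collagen-binding alpha subunits all pair with Itgb1. Itga1, which favours the collagen IV of basement membranes (chromosome 2, 47127219 to 47281421), measured 43.5, 38.2 and 40.1 FPKM in control and 37.4, 35.9 and 33.6 in PF model lungs. Every PF model lung lay below every control lung, with a log2 fold change of -0.18 ± 0.08 (SE, unadjusted p = 0.0599, limma adjusted p = 0.934). A 2-exon transcript within an intron of Itga1 on its own strand, MSTRG.18845.1, measured 5.41, 4.60 and 5.17 FPKM against 4.24, 4.07 and 3.24, with a log2 fold change of -0.33 ± 0.13 (SE, unadjusted p = 0.0459, limma adjusted p = 0.945). The spliced transcripts of Itga1 overlapped between groups, at 22.9 ± 2.53 FPKM in control and 21.6 ± 1.53 in PF model lungs (SD, n = 3).

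Itga10, a collagen receptor best known from cartilage, gave the widest spread of all members. It measured 892, 0.219 and 0.295 FPKM in control and 0.0211, 0.123 and 0.143 in PF model lungs. The value of control 1 lay in a pair of assembled transcripts of 3 exons, MSTRG.20377.3 (245 bases, 258 FPKM) and MSTRG.20377.4 (244 bases, 633 FPKM), which span chromosome 2 from 198588389 and from 198603022 to 199013193, far beyond the gene at 198772937 to 198792253. Transcripts of the overlapping class made up 99.97% of the Itga10 FPKM, and the log2 fold change was -3.36 ± 2.49 (SE, unadjusted p = 0.222, limma adjusted p = 0.934). Without control 1 it was -0.20 (unadjusted p = 0.0431, limma adjusted p = 0.891), with all values under 0.3 FPKM. For the spliced transcripts the log2 fold change was -0.0079 (unadjusted p = 0.850, limma). Itga2 and Itga11, receptors for fibrillar collagens, measured 8.40 ± 1.05 against 8.47 ± 1.43 FPKM and 5.75 ± 1.48 against 5.03 ± 0.524 (control against PF model, SD, n = 3). Of the FPKM of Itga2, 75.8% lay outside its spliced transcripts, which gave a log2 fold change of 0.15 ± 0.13 (SE) where the total gave 0.0057. For Itga11 the log2 fold change was -0.14, or -0.04 for spliced transcripts.

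Of the laminin-binding alpha subunits, Itga7 was the member with the lowest p among those higher in the PF model. Itga7 is the laminin receptor subunit of striated and smooth muscle. It measured 0.554, 1.04 and 0.910 FPKM in control and 1.68, 1.65 and 1.08 in PF model lungs, with all of it in annotated transcripts. The groups did not overlap, though PF model 3 lay just above control 2, and the log2 fold change was 0.43 ± 0.16 (SE, unadjusted p = 0.0332, limma adjusted p = 0.934). The unadjusted p lay between 0.0548 and 0.105 when control 1, control 3, PF model 1 or PF model 2 was left out, and was 0.0515 in a sum weighted by transcript length. The isoform ENSRNOT00000061657 was at 0 in the 3 controls and at 1.58, 0.495 and 0 FPKM in PF model lungs. The other isoform, ENSRNOT00000030453, measured 0.554, 1.04 and 0.910 FPKM in control and 0.094, 1.16 and 1.08 in PF model lungs (log2 fold change -0.10 ± 0.30, SE, unadjusted p = 0.748, limma), and the first isoform was found in PF model 1 and PF model 2 alone. Markers of heart muscle, which pulmonary veins carry in rodents, summed to 10.8, 6.37 and 8.22 FPKM in control and 6.14, 6.04 and 27.7 in PF model lungs. Markers of smooth muscle summed to between 86.4 and 112 FPKM in control and between 82.0 and 146 in PF model lungs. The part of heart muscle or smooth muscle in the Itga7 values was not tested. Itga3 and Itga6, the laminin receptor subunits of epithelium, measured 22.8 ± 3.26 against 24.6 ± 2.80 FPKM and 9.23 ± 0.155 against 9.49 ± 1.22 (SD, n = 3).

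Itga9, a receptor subunit for tenascin-C, measured 22.0, 23.96 and 18.0 FPKM in control and 27.9, 21.8 and 25.4 in PF model lungs. The groups overlapped, with a log2 fold change of 0.23 ± 0.14 (SE, unadjusted p = 0.144, limma adjusted p = 0.934). More than 50% of this FPKM was intronic, downstream or overlapping, and the spliced transcripts gave a log2 fold change of 0.14. The unadjusted p of Itga9 was 0.0371 after rescaling to TPM and 0.0128 in a sum weighted by transcript length (limma adjusted p = 0.908 and 0.923). Itga4, the VCAM1 receptor subunit of leukocytes, measured 17.2 ± 3.70 FPKM in control and 15.4 ± 2.56 in PF model lungs (SD, n = 3), with a log2 fold change of -0.13, or -0.03 for spliced transcripts. Its annotated transcript ENSRNOT00000006880 held a small share of this, 1.35, 0.614 and 0.929 FPKM in control and 3.40, 2.53 and 2.57 in PF model lungs. That transcript was higher in every PF model lung, with a log2 fold change of 0.97 ± 0.20 (SE, unadjusted p = 0.00322, limma adjusted p = 0.717), while the assembled variant MSTRG.23251.1 held between 59.1% and 81.8% of the spliced FPKM in each lung.

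The leukocyte alpha subunits mostly pair with Itgb2. Itgad, found on macrophages and other myeloid cells (chromosome 1, 199495298 to 199623960), measured 6.14, 7.65 and 7.498 FPKM in control and 3.89, 5.24 and 4.97 in PF model lungs. The groups did not overlap, and the log2 fold change of -0.51 ± 0.14 (SE, unadjusted p = 0.0101, limma adjusted p = 0.934) was the largest in size after that of Itga10. A single-exon intronic transcript of 471 bases, MSTRG.3062.1, measured 2.15, 2.63 and 1.70 FPKM in control and 0.0312, 0.873 and 0.976 in PF model lungs, from an estimated 0.712 to 52.8 reads per library (log2 fold change -1.01 ± 0.30, SE, unadjusted p = 0.0166, limma adjusted p = 0.945). The spliced transcripts under the name overlapped, at 3.99, 5.02 and 5.80 FPKM against 3.86, 4.36 and 3.999, with a log2 fold change of -0.22 ± 0.14 (SE, unadjusted p = 0.168, limma). Most of the spliced FPKM lay in ENSRNOT00000026748, at 2.29, 3.44 and 3.94 in control and 2.72, 2.87 and 2.47 in PF model lungs. This transcript lies before Itgax in these coordinates. The order of genes in RefSeq (GRCr8) is Itgal, Itgam, Itgax and Itgad. Values under the name Itgad may therefore belong in part to Itgam, which was not tested.

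For Itgax, known as CD11c and carried by dendritic cells and alveolar macrophages, a pair of isoforms lay apart between the groups in opposite directions. The Itgax total was 5.71 ± 0.876 FPKM in control and 4.91 ± 0.371 in PF model lungs (SD, n = 3, unadjusted p = 0.233, limma adjusted p = 0.934). The assembled variant MSTRG.3061.1 measured 1.90, 2.46 and 1.83 FPKM in control and 0.683, 0.662 and 0.212 in PF model lungs. The variant MSTRG.3061.3 was higher, at 2.15, 2.64 and 1.57 FPKM in control and 4.63, 3.91 and 3.31 in PF model lungs. Neither variant overlapped between groups. The log2 fold changes were -1.02 ± 0.20 (SE, unadjusted p = 0.00234, limma adjusted p = 0.630) and 0.67 ± 0.18 (SE, unadjusted p = 0.0117, limma adjusted p = 0.945). Both have 29 exons and lie on the same stretch of chromosome 1, so reads on shared exons are divided between them by estimation. Itgal, the alpha subunit of LFA-1 on lymphocytes, measured 23.5 ± 2.64 and 22.5 ± 0.970 FPKM, and Itgae, which holds T cells to E-cadherin, 5.54 ± 0.389 and 6.29 ± 0.679 (control and PF model, SD, n = 3). Their log2 fold changes were -0.06 and 0.15, or 0.02 and 0.11 for spliced transcripts, which held 23.9% of the FPKM of Itgae. The leukocyte markers Ptprc, Coro1a and Laptm5 summed to between 98.4 and 127 FPKM in control and between 112 and 124 in PF model lungs.

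The beta subunits lay on both sides of their control levels, with 4 log2 fold changes above 0, 4 below 0 and a median of 0.02. For spliced transcripts 5 were above 0 and 3 below (median 0.04), and after rescaling to TPM 6 were above and 2 below (median 0.10). None of the 8 had an unadjusted p of at most 0.05 (limma). Itgb1 gave a log2 fold change of -0.0082 ± 0.09 (SE), which was 0.03 for spliced transcripts and 0.08 after rescaling to TPM. A single-exon transcript of 285 bases downstream of Itgb1, MSTRG.18228.1, measured 3.57, 2.59 and 3.32 FPKM in control and 2.22, 1.84 and 1.01 in PF model lungs (log2 fold change -0.65 ± 0.22, SE, unadjusted p = 0.0272, limma adjusted p = 0.945), from an estimated 13.3 to 47.2 reads. Itgb2, the beta subunit shared by leukocyte integrins, measured 28.5, 29.0 and 31.6 FPKM in control and 29.5, 26.7 and 30.6 in PF model lungs. Its groups overlapped, with a log2 fold change of -0.04 ± 0.08 (SE), or -0.02 for spliced transcripts and 0.05 after rescaling to TPM.

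Itgb6 and Itgb8 both join Itgav to form receptors that activate latent TGF-beta. Itgb6, an epithelial subunit, measured 14.1, 13.2 and 13.3 FPKM in control and 17.1, 15.3 and 10.6 in PF model lungs. The PF model lungs lay on both sides of the controls, with a log2 fold change of 0.06 ± 0.17 (SE, unadjusted p = 0.751, limma adjusted p = 0.987). Without PF model 3 it was 0.24 (unadjusted p = 0.0394, limma adjusted p = 0.986) and without PF model 1 it was -0.08. Itgb8 measured 6.38, 7.21 and 9.04 FPKM in control and 5.02, 6.97 and 4.67 in PF model lungs. Its log2 fold change was -0.39 ± 0.18 (SE, unadjusted p = 0.0718, limma adjusted p = 0.934), and without PF model 2, whose value lay within the control range, it was -0.54 (unadjusted p = 0.0201, limma adjusted p = 0.819). Only 18.9% of the Itgb8 FPKM was spliced, at 1.33 ± 0.771 in control and 1.15 ± 0.112 in PF model lungs (SD, n = 3). Itgb3 and Itgb5, vitronectin receptor subunits, measured 11.3 ± 1.18 against 10.5 ± 2.32 and 13.2 ± 1.05 against 13.6 ± 2.28 FPKM (SD, n = 3). Itgb4, the hemidesmosome partner of Itga6, measured 3.58 ± 0.322 against 4.30 ± 0.624. Itgb7, the partner of Itga4 and Itgae on lymphocytes, measured 3.55, 4.03 and 4.37 FPKM in control and 4.38, 4.60 and 5.07 in PF model lungs (log2 fold change 0.19 ± 0.12, SE, unadjusted p = 0.159, limma adjusted p = 0.934).

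**Figure D3:**
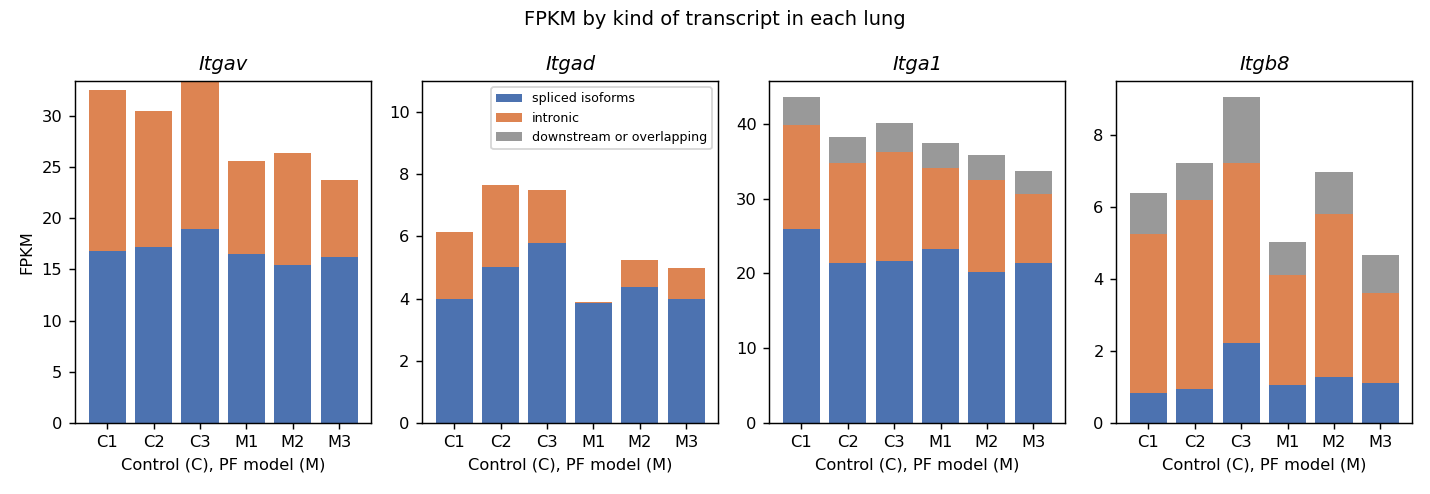
FPKM (vertical axis) of Itgav, Itgad, Itga1 and Itgb8 in each control (C1 to C3) and PF model (M1 to M3) lung, stacked by spliced isoforms, intronic transcripts and downstream or overlapping transcripts. The spliced part of Itgav ranges from 15.4 to 19.0 FPKM over the 6 lungs, and its intronic part is shorter in the 3 PF model lungs.

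Intronic transcripts of the members had lower FPKM sums in the PF model lungs. They summed to 109, 110.1 and 115 FPKM in control and 98.5, 101 and 86.2 in PF model lungs, without overlap on this scale. The separation depended on scaling. The factor from FPKM to TPM was 1.67 in control 2 and 1.89 in PF model 2, which places PF model 2 above control 2 in TPM. As a share of the members' FPKM without Itga10, intronic transcripts held 16.9% to 18.4% in control and 13.6% to 16.5% in PF model lungs. How often such sums lie apart in other sets of genes was not tested. Of 36 such transcripts tested, 24 had a log2 fold change below 0, with a median of -0.16. Over all 9704 intronic transcripts tested, 60.8% were below 0 and the median was -0.06. All PF model lungs lay below all controls in 8 of the 36, against 7.96% of all intronic transcripts, and above all controls in 3, against 3.35%, and several of the 36 share a gene. Of 50 annotated member transcripts tested, 17 had a log2 fold change below 0, against 49.97% of all annotated transcripts.

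Most laminin chains had fold changes above 0 that did not pass the test. Of 9 chains tested, 8 had a log2 fold change above 0, against 47.7% of all genes, and none had an unadjusted p of at most 0.05 (limma). The median was 0.13, against -0.0064 over all genes. It was 0.16 for spliced transcripts, against -0.0014 over all genes, and 0.22 after rescaling to TPM, against 0.05. Their summed FPKM was 186, 180.1 and 169 in control and 202, 189 and 191 in PF model lungs, which did not overlap. How often such sums lie apart in other sets of genes was not tested. The direction of single chains depended on the transcripts used. From annotated transcripts only, the log2 fold change was -0.12 for Lama2, -0.034 for Lama5, -0.93 for Lamb1 and -0.034 for Lamb2. That of Lama4 was 0.50 on this scale, and the other chains tested stayed above 0. Annotated transcripts held 0.511% of the FPKM of Lama2, 4.98% for Lama4, 36.0% for Lama5, 43.1% for Lamb1 and 41.4% for Lamb2. The leading isoform of Lamb1 differed between single lungs, as described further on. Lamb2, the main beta chain of mature basement membranes, measured 50.02, 45.2 and 43.5 FPKM in control and 52.8, 53.1 and 49.3 in PF model lungs. Control 1 lay above the lowest PF model lung, and the log2 fold change was 0.16 ± 0.08 (SE, unadjusted p = 0.0887, limma adjusted p = 0.934), or 0.22 without control 1 (unadjusted p = 0.0453, limma adjusted p = 0.891). Lamb1, the other broad beta chain, measured 13.6 ± 1.49 against 15.1 ± 2.44 FPKM (SD, n = 3).

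Lamc1, the gamma chain of most laminins, measured 34.2, 32.3 and 31.8 FPKM in control and 34.9, 33.0 and 36.9 in PF model lungs. Its groups overlapped, with a log2 fold change of 0.09 ± 0.07 (SE, unadjusted p = 0.274, limma adjusted p = 0.934), or 0.13 ± 0.09 for spliced transcripts. Its annotated transcript ENSRNOT00000003605 did not overlap, at 3.57, 4.40 and 3.93 FPKM in control and 5.70, 5.42 and 5.27 in PF model lungs (log2 fold change 0.38 ± 0.11, SE, unadjusted p = 0.0125, limma adjusted p = 0.945). Lamb3, a beta chain of epithelial basement membranes, measured 14.8 ± 2.23 against 17.1 ± 2.51 FPKM (SD, n = 3). Lamc3, a gamma chain of restricted distribution, measured 1.33, 2.60 and 1.99 FPKM in control and 2.42, 3.04 and 2.60 in PF model lungs. Its groups overlapped through control 2, with a log2 fold change of 0.33 ± 0.19 (SE, unadjusted p = 0.125, limma adjusted p = 0.934), or 0.48 without control 2 (unadjusted p = 0.0388, limma adjusted p = 0.946).

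Lama4, the endothelial alpha chain, was the one laminin chain with a fold change below 0. It measured 25.1, 27.5 and 23.7 FPKM in control and 24.2, 23.3 and 23.6 in PF model lungs, with a log2 fold change of -0.10 ± 0.08 (SE, unadjusted p = 0.259, limma adjusted p = 0.934), or -0.07 for spliced transcripts. Lama5, the broad alpha chain of adult epithelium and vessels, measured 23.3 ± 0.948 FPKM in control and 25.2 ± 2.62 in PF model lungs (SD, n = 3). Lama2, the alpha chain of muscle and nerve basement membranes, measured 8.26 ± 0.652 and 8.91 ± 0.271, and its spliced transcripts gave a log2 fold change of 0.19 ± 0.09 (SE, unadjusted p = 0.0673, limma). The ratio of Lama5 to Lama4 was 0.939, 0.874 and 0.935 in control and 1.09, 1.15 and 0.941 in PF model lungs. For spliced transcripts the groups overlapped, at 0.921, 0.878 and 0.950 in control and 1.08, 1.18 and 0.939 in PF model lungs. Ratios of other pairs of members were computed and are not given here.

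Transcripts of the members were also tested one by one. Of 144 tested, 9 had an unadjusted p of at most 0.05, 3 higher and 6 lower in the PF model (background 4.53% of 64867 transcripts), and 4 also passed the fold threshold (background 2.98%). None had an adjusted p below 0.05 (limma), against 18 of all transcripts. The 4 were MSTRG.3061.1, ENSRNOT00000006880 and MSTRG.3062.1, given above, and ENSRNOT00000079138 of Lama2, which held 0.0567 FPKM on average in control and 0.00137 in PF model lungs.

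The isoform given most of a gene's reads often differed between single lungs. Of 29 members with at least 2 spliced isoforms, 15 had the same leading isoform in all 6 lungs, and in 8 of the other 14 a single lung differed. Itgb3 had 9.08, 10.0 and 11.3 FPKM in ENSRNOT00000082780 in control, and 11.8, 0 and 8.67 in PF model lungs. In PF model 2 the reads were given to ENSRNOT00000073350 instead, at 8.73 FPKM. Lama2 did likewise in the same lung, where MSTRG.303.1 was at 0.246 FPKM, against 5.54 to 6.71 in the other 5, and MSTRG.303.2 held 6.89. Itgb4 had a different leading isoform in PF model 1 and in PF model 2. Lamb1 was split between groups, with MSTRG.30404.1 leading in control 2, PF model 1 and PF model 2 and ENSRNOT00000008321 in the other 3 lungs. The genes shown here were chosen after their values were seen.

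**Figure D4:**
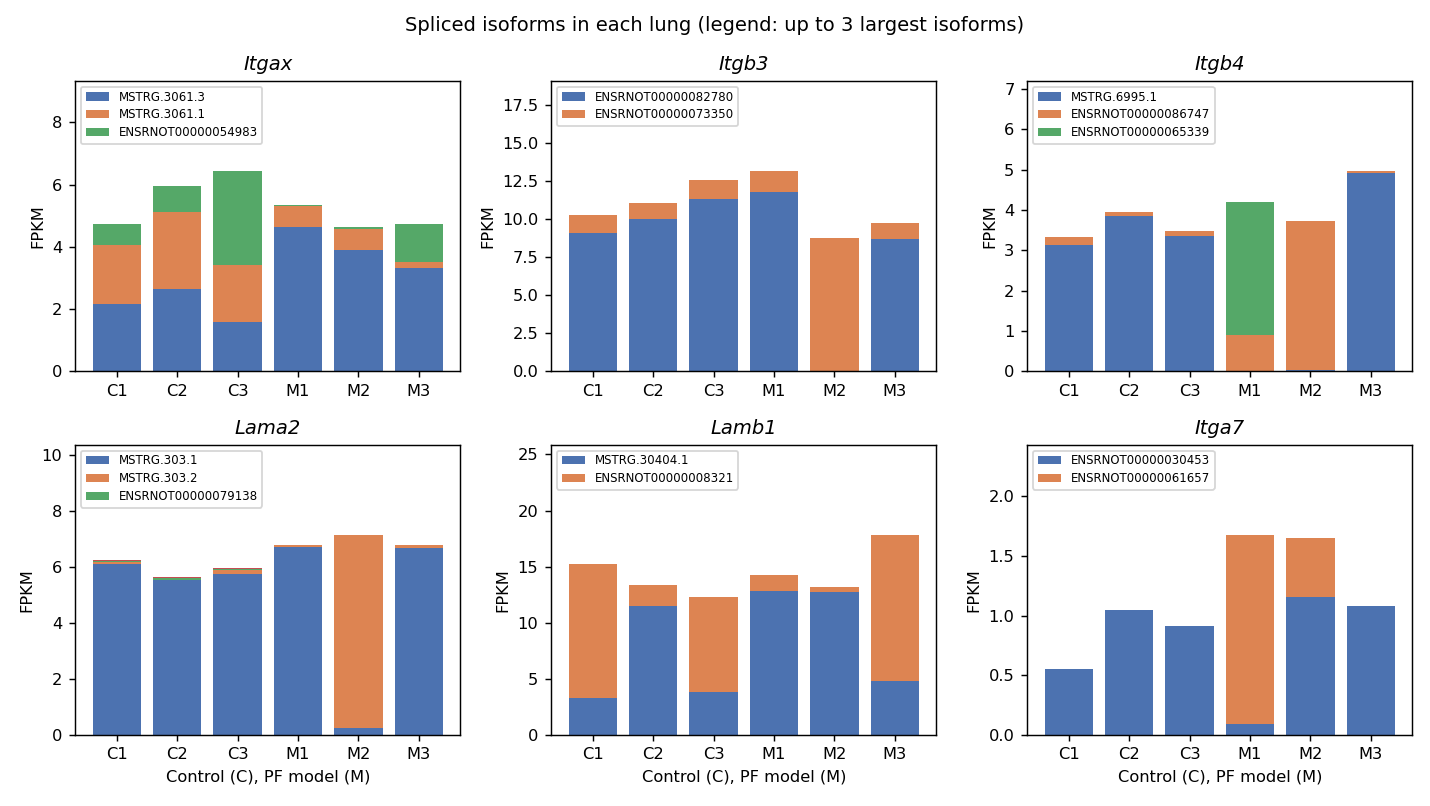
FPKM (vertical axis) of the spliced isoforms of 6 members, stacked, in each control (C1 to C3) and PF model (M1 to M3) lung. The leading isoform changes in single lungs, as in PF model 2 for Itgb3, where 8.73 FPKM lie in the isoform that is minor elsewhere.

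Proteins and ligands that act with these receptors were described from lists. Of 36 integrin adhesion and activation proteins, 34 were found, and 1 had an unadjusted p of at most 0.05, being higher in the PF model, as were 2.16% of all genes. This was Src, a tyrosine kinase of focal adhesions, at 6.10, 6.37 and 5.80 FPKM in control and 7.25, 7.59 and 7.06 in PF model lungs (log2 fold change 0.23, unadjusted p = 0.0449, limma). The median log2 fold change of this list was -0.01. Of 28 partners in the basement membrane, such as nidogens and collagen IV chains, 25 were found, none at this p (limma), with a median of 0.07. Of 36 ligands, 34 were found and 33 tested, with a median of 0.10 and 1 higher at this p (background 2.16%), Col3a1, a fibrillar collagen chain, at 174, 178 and 154 FPKM in control and 189, 204 and 233 in PF model lungs (log2 fold change 0.30, unadjusted p = 0.0365, limma). No list had a member past both thresholds or with an adjusted p below 0.05.

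Markers of the cell types of the lung were present in every list. None of the 56 markers tested had an unadjusted p of at most 0.05 (limma). Foxj1, Pecam1, Cldn5, Marco, Mpo and Cd79a were on the lists but were not found. Type 2 cell markers summed to between 4244 and 5924 FPKM in control and between 5007 and 6553 in PF model lungs, type 1 cell markers to between 483 and 637 and between 576 and 682. Endothelial markers summed to between 199 and 320 in control and between 254 and 282 in PF model lungs, fibroblast markers to between 133 and 139.7 and between 129 and 178. Macrophage markers summed to between 41.4 and 64.6 in control and between 41.8 and 66.7 in PF model lungs. Most of this range came from Cd68, at 21.0, 20.7 and 1.30 FPKM in control and 22.2, 1.21 and 22.8 in PF model lungs. The sums overlapped between groups in these lists and in those of airway, smooth muscle, heart muscle, neutrophil, T and NK, B, platelet, mesothelial and Schwann cells, and their part in the members' values was not tested.

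Circular RNAs of the members were rare. The 35 circRNAs came from 14 members, with 55 of 14904 back-splice reads (0.369%), 30 in control and 25 in PF model lungs. Of the 35, 25 rested on a single read and 29 were found in 1 lung, and 34 were exonic. None reached the 10 reads needed for a test with edgeR. Among the 226 circRNAs that did, 12 (5.31%) had an unadjusted p of at most 0.05. Itga8 was the host of 11 circRNAs and 14 reads, at 4, 3 and 3 in control and 2, 1 and 1 in PF model lungs. Itga1 had 9 reads, at 0, 1 and 0 in control and 1, 2 and 5 in PF model lungs. Itga9 also had 9 reads, at 3, 1 and 1 in control and 4, 0 and 0 in PF model lungs. Itgb5 had 5 reads, all in control, and each other host had at most 3. The sums per host were not tested. Libraries held between 2037 and 2964 back-splice reads in all, and none of the 2 member circRNAs tested at a minimum of 5 reads, nor of the 35 tested without a filter, had an unadjusted p of at most 0.05 (edgeR). The most frequent, circRNA1268 of Itga9 and circRNA1863 of Itga1, were named after their values were seen. The first had 1, 1 and 0 reads in control and 4, 0 and 0 in PF model lungs, and the second 0, 1 and 0 against 0, 0 and 4. The study names circRNA1863 where it discusses its differentially expressed circRNAs. It also names circRNA3902 of Itga1 (2 reads here) and circRNA243 of Itga8 (3 reads here).

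**Figure D5:**
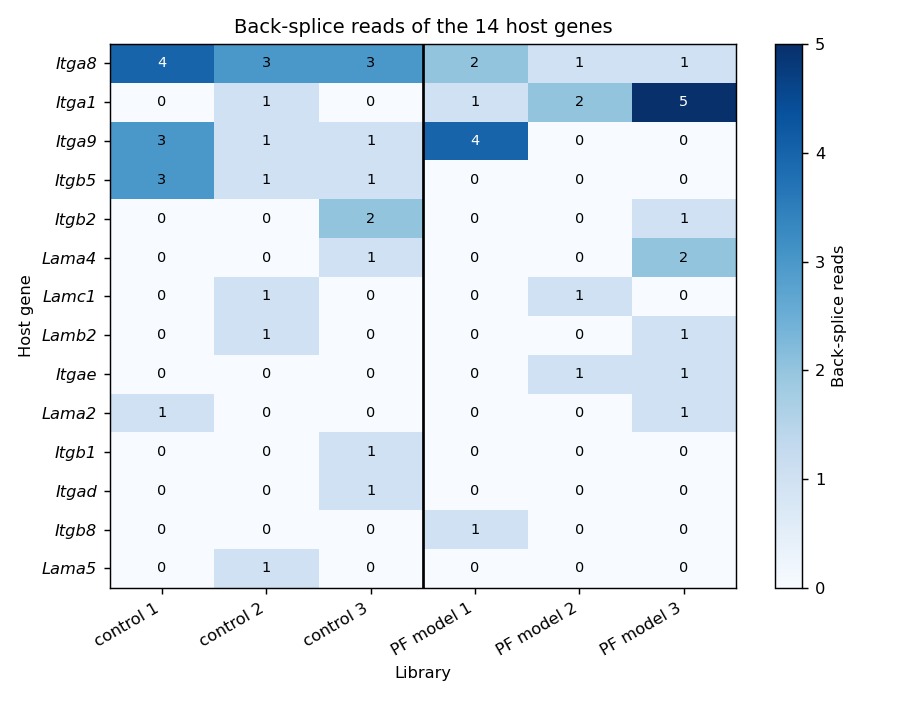
Back-splice reads (numbers and shade) of the 14 member genes that host circRNAs, in each of the 6 libraries, with a line between control and PF model. No cell exceeds 5 reads, and Itga8 is the one host with a read in every library.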

How the data were processed

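Lung RNA of 3 control and 3 PF model rats was analysed, 1 library per rat, grouped by the sample type in the labels. The study mapped reads with Bowtie2 and Tophat2 and assembled them with StringTie. The submitters' processing notes name HISAT2, StringTie and TopHat, and the genome build is not given in the sources used here. The authors deposited FPKM per transcript, a per-base coverage signal that is not scaled to library size, raw counts of back-splice reads from CIRCexplorer, and a scaled circRNA signal (SRPBM) that was not used here. Reads were estimated as coverage times length divided by 150 bases.

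FPKM were summed per gene name. Genes with an annotated transcript and FPKM above 0 in at least 3 of 6 samples were compared with limma 3.58.1 (variance trend, R 4.3.3) on log2(FPKM + 1), two-sided, with Benjamini-Hochberg adjustment over all genes. This scale understates changes of low genes. CircRNAs with at least 10 reads were compared with edgeR 4.0.16 (TMM, quasi-likelihood), with DESeq2 1.42.0 as an alternative. Other alternatives were another pseudocount, filters and scalings, samples blocked by replicate number, and fits without single samples. The tests were checked on simulated data. The members and lists were chosen with earlier results of these data known. Per-sample values are given for members with an unadjusted p of at most 0.05, the 5 with the smallest p in each direction and the 3 most abundant of each family, and for up to 8 transcripts with the smallest p at a mean FPKM of at least 0.5. P-values measure the spread between 3 rats per group. Of the laminin chains, 1 is counted in the summaries but not reported here by itself.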

Additional observations from a re-analysis of the deposited data

How the results depend on the processing

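No member gene passed both thresholds under any alternative except annotated transcripts only, which called 2 (Itga4 and a Lama2 value near 0), and leaving out control 1 or control 2, which called 1 each (Itga10 and Itga7), for a range of 0 to 1 over the 6 left-out libraries. The count of members at an unadjusted p of at most 0.05 was 5 after rescaling to TPM, 1 with a sum weighted by transcript length (Itga9) and 1 for the spliced transcripts (Itga7), a setting chosen after seeing the data, and ranged from 2 to 5 without single libraries (5 without PF model 3). Over all genes, 80 were called at a mean FPKM of at least 1 and 519 from annotated transcripts. Rescaling to TPM turned the split of calls from 132 higher and 161 lower (45.1% higher) to 194 and 138 (58.4% higher) and moved the median of all genes to 0.05. Member transcripts past both thresholds ranged from 4 to 8 without single libraries (7 without control 2, 8 without PF model 2 or PF model 3). Of all circRNAs, 5 were called by DESeq2, 30 at a minimum of 5 reads, 24 without a filter and from 7 to 15 without single libraries (7 without PF model 2 or PF model 3). The cause of these shifts was not tested.

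The labels do not say that equal sample numbers mark a shared litter or day, and deviations of same-numbered samples correlated at 0.072, 0.033 and -0.066. With a replicate block, 0 member genes and 5 member transcripts passed both thresholds, 2 members, Itgad and Itgav, had an unadjusted p of at most 0.05 while that of Itga7 was 0.0551, and 311 genes were called and 2 circRNAs. Control 3 correlated best with PF model 2.

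Log2 fold changes of the members given per-sample values by the rule above turned sign as follows. Most were of values near 0, but those of Itgav (-0.34, 0.564% of FPKM in annotated transcripts), Itga1 (-0.18, 12.7%) and Lamb2 (0.16, 41.4%) turned too. With annotated transcripts only, they were 0.074 for Itga1, 0.036 for Itga8, 0.14 for Itgav, 0.031 for Itgb1, 0.085 for Itgb2, -0.025 for Itgb6, 0.50 for Lama4 and -0.034 for Lamb2. After rescaling to TPM, they were 0.067 for Itga8, 0.076 for Itgb1 and 0.045 for Itgb2. Weighted by length, they were 0.018 for Itga8 and -0.053 for Itgb6, and for spliced transcripts 0.035 for Itga8 and 0.031 for Itgb1. Without single libraries, they ranged from -0.071 (without PF model 3) to 0.057 (without control 1) for Itga8, from -0.055 (without control 2) to 0.052 (without PF model 2) for Itgb1, from -0.077 (without PF model 3) to 0.016 (without PF model 2) for Itgb2, and from -0.077 (without PF model 1) to 0.24 (without PF model 3) for Itgb6. Of 240 values of the members under that rule, 195 kept direction and side of the threshold under alternatives, 9 came to pass it, 13 no longer did and 23 turned. Members outside the rule also turned with annotated transcripts only. The log2 fold change went from -0.13 to 0.97 for Itga4, from 0.13 to -0.93 for Lamb1 and from -0.14 to 0.23 for Itga11. It went from -0.06 to 0.25 for Itgal and from 0.10 to -0.12 for Lama2. For Lama5 it went from 0.10 to -0.034 and for Itga6 from 0.03 to -0.08. Annotated transcripts held between 0.511% (Lama2) and 44.6% (Itga6) of the FPKM of these members. The annotated transcript of Itga11 was at 1.29 FPKM in PF model 2 and at most 0.167 in the other lungs. When weighted by length, Itgad, Itgav and Itga7 missed an unadjusted p of 0.05 (0.0803, 0.344 and 0.0515), as did Itga7 at a mean FPKM of at least 1 (0.0579).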
